A study of Mus musculus with 8 samples.

Results

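MHC class II and immunoglobulin transcripts were followed in activated OT-I (OT-1) CD8 T cells that were treated with GC7 or left as mock controls. The 10 genes are H2-Aa, H2-Ab1, H2-Eb1, H2-DMb2, H2-Oa, Cd74, Ighm, Igkc, Igha and Cd79a, of 55536 genes in the count tables. They were chosen by symbol as a sign of residual antigen-presenting or B cells, with the GC7-against-mock values of these same libraries already known. Their difference between the groups is therefore given as a description, without a test. Each symbol matched 1 Ensembl gene on GRCm38 (Ensembl 96). Of the 10 genes, 6 passed a filter on CPM, the counts scaled by library size, which had to exceed 3 in 4 or more libraries, and H2-Aa, H2-Eb1, Igkc and Cd79a did not. The gene lists read beside the 10 genes were also chosen with earlier results of these data known. Adjusted p-values of listed genes, such as H2-Ob and Ighd, are therefore no independent support for the 10 genes.

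MHC class II molecules are pairs of an alpha and a beta chain that present peptides to CD4 T cells, and their usual sources are B cells, dendritic cells and macrophages. Mouse T cells generally carry little or none of them. In C57BL/6 mice the I-A pair is encoded by H2-Aa and H2-Ab1, whereas the I-E alpha gene is defective, so the beta chain encoded by H2-Eb1 has no partner at the surface. Cd74 encodes the invariant chain, which occupies the peptide groove until H2-DM removes its remnant, and H2-O, made by H2-Oa and H2-Ob, restrains H2-DM. Immunoglobulin heavy and light chains are joined from variable, diversity and joining segments by the Rag recombinase and are completed by a constant gene such as Ighm, Igha or Igkc. Cd79a encodes a signalling chain of the B cell receptor.

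Both groups came from lymph nodes of mice carrying the OT-1 T cell receptor transgene, which recognises the ovalbumin peptide SIINFEKL, on the Rag-1KO background (B6.129S7-Rag1tm1Mom/J), with CD45.1 or CD45.2 as the congenic marker. Donors of both sexes were 5 to 12 weeks old. A mouse of this background cannot assemble its own antigen receptors and lacks mature B cells, in mock and GC7 cultures alike. Lymph node cells were passed through a mesh, with no purification step described, although the study's reporting notes state that nearly all dissected lymphocytes were CD8 T cells. The cells received 100 nM of the peptide for 2 days and 20 ng/ml recombinant human IL-2 for the next 2 days. GC7 was present at 10 µM during the IL-2 period in 4 cultures. It inhibits DHPS, the enzyme that begins hypusination of the translation factor eIF5a. The 4 mock cultures received the vehicle, 10 mM acetic acid, at the same volume. The sources call the 4 samples of a group biological replicates and do not say whether they came from separate animals, so the spread may in part be technical. The tables held 17528776 to 25284730 counts per library.

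Promoters of 4 of the class II genes are shown because these genes lie together on chromosome 17 and yet differed in direction. RefSeq promoter sequence (GRCm38.p6) was held for 5 of the 10 genes, and it runs from 250 bases before to 50 bases after the gene start. H2-Ab1 and Cd74 were not among these 5, so their promoters were not searched. The X and Y boxes are conserved elements of class II promoters, bound by the RFX and NF-Y complexes that work with the transactivator CIITA. Each stretch of 110 bases is written 5′ to 3′ on the gene's own strand. Capitals mark the Y box core CCAAT, on either strand (ATTGG when reversed), and GCAAC, a core of the X box, searched on both strands as well. The letters were picked after the sequences had been seen.
H2-Aa, chr17:34287832-34287941, minus strand: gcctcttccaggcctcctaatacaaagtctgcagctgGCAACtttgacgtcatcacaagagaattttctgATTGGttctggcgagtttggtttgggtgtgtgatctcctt
H2-Eb1, chr17:34305738-34305847, plus strand: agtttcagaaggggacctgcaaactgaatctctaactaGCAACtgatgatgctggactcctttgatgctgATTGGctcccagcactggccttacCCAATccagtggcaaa
H2-Oa, chr17:34092266-34092375, plus strand: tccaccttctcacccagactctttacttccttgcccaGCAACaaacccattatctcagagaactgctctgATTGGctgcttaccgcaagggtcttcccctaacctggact
H2-DMb2, chr17:34145089-34145198, plus strand: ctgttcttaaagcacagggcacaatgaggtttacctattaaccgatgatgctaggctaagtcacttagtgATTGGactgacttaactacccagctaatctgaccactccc

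RefSeq and GENCODE place the start of H2-Oa and H2-DMb2 differently, so that these stretches lie partly or wholly inside the counted gene. The first ATTGG began 48 bases before the RefSeq gene start in H2-Aa, 59 in H2-Eb1, 43 in H2-Oa and 90 in H2-DMb2. GCAAC preceded it by 33 bases in H2-Aa, 32 in H2-Eb1 and 33 in H2-Oa, and was absent from the H2-DMb2 window. CCAAT alone is common and stood in 37.4% of 32851 RefSeq promoters of 300 bases, and GCAAC in 35.2%. Both in this order and 20 to 40 bases apart were found in 1.02% of them. The promoter of Cd79a held neither. The 3 promoters that share this layout belong to a gene with almost no counts in either group (H2-Aa), a gene that was higher with GC7 (H2-Eb1) and a gene that was lower (H2-Oa).

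H2-Ab1, the beta chain of I-A (chr17:34257689-34269419, plus strand), was the most abundant class II transcript per length in both groups. The 4 mock libraries held 133, 179, 140 and 133 CPM after scaling with TMM factors, and the 4 GC7 libraries 37.9, 40.9, 37.6 and 45.2 CPM. Every mock library was above every GC7 library. The mean was 146 ± 22.3 CPM in mock and 40.4 ± 3.56 CPM with GC7 (SD, n = 4 each), a 3.62-fold difference and a log2 difference of -1.85 with a standard error (SE) of 0.104. The GC7 libraries still held 677 to 1089 raw counts of this gene.

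H2-Aa, the alpha chain that completes I-A (chr17:34282744-34287823, minus strand), was close to absent. The mock libraries held 2, 1, 0 and 0 raw counts and the GC7 libraries 2, 5, 2 and 3. The groups overlapped, and their summed counts of 3 and 12 gave a ratio of 4.28 with a counting interval (95%) of 1.15 to 23.6, which covers counting error only. This ratio is scaled by library totals, and the fold of mean TMM-scaled CPM was 3.87. No difference is read from either. The alpha and beta genes of I-A are neighbours, and H2-Aa had at most 5 counts in a library where H2-Ab1 had at least 677.

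H2-Eb1 (chr17:34305867-34316674, plus strand) was higher with GC7, from a low base. Its raw counts were 4, 9, 6 and 6 in mock and 37, 36, 66 and 84 with GC7. The groups did not overlap, although GC7 libraries 3 and 4 were well above GC7 libraries 1 and 2. In CPM the level was 0.291 ± 0.0727 in mock and 2.64 ± 1.08 with GC7, a 9.10-fold difference of means and a log2 difference of 3.14 (SE 0.310) in a fit without the filter. An annotated antisense gene over H2-Eb1, Gm20513, had no counts.

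Cd74, the invariant chain (chr18:60803848-60812652, plus strand), was also higher with GC7. The mock libraries held 45, 39, 52 and 40 raw counts and the GC7 libraries 274, 266, 206 and 290. These are levels of 2.09 ± 0.340 and 12.2 ± 0.770 CPM, with a log2 difference of 2.55 (SE 0.133). All GC7 libraries were above all mock libraries, by 5.84-fold on average, and the gene passed the filter through the GC7 libraries only. H2-Ab1 and its chaperone Cd74 thus stood in opposite order between the groups. The ratio of H2-Ab1 to Cd74 counts lay between 58.0 and 109 in mock libraries and between 2.86 and 3.76 in GC7 libraries.

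H2-DMb2, a beta chain of the peptide exchange factor H2-DM (chr17:34143307-34151555, plus strand), was lower with GC7. It measured 10.0, 13.4, 10.4 and 10.5 CPM in mock and 4.16, 4.66, 4.66 and 5.03 CPM with GC7, with a log2 difference of -1.26 (SE 0.125). The groups did not overlap. Its copy H2-DMb1 shares 95.7% identity over 1081 bases, so reads may be split between them. H2-DMb1 was below the filter, with 39 to 68 raw counts in mock and 30 to 38 with GC7, a log2 difference of -0.62 that did not pass the test without the filter (edgeR's quasi-likelihood test, Benjamini-Hochberg adjusted p = 0.0241).

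H2-Oa, the alpha chain of H2-O (chr17:34092340-34095234, plus strand), was lower with GC7 as well. Mock libraries had 15.5, 17.5, 17.6 and 15.7 CPM and GC7 libraries 5.13, 5.66, 8.71 and 7.44 CPM, a log2 difference of -1.30 (SE 0.145). The highest GC7 library was below the lowest mock library. H2-Oa shares 234 identical bases with the antisense gene BC051537, which had at most 5 counts in a library. H2-Ob, the beta chain of H2-O and not one of the 10 genes, fell from 8.44 ± 1.46 to 2.57 ± 0.848 CPM, with a log2 change of -1.72 (SE 0.213, adjusted p = 2.4e-05, edgeR's quasi-likelihood test).

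**Figure D1:**
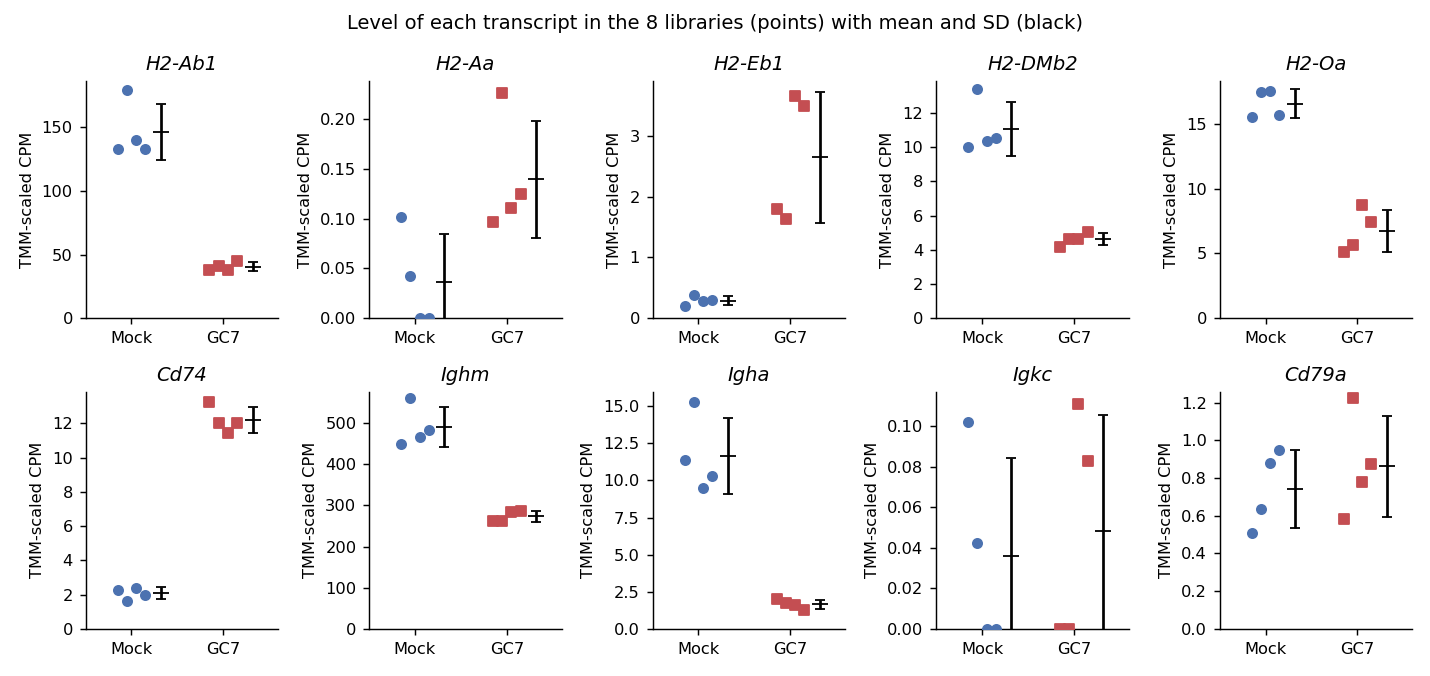
TMM-scaled CPM of each of the 10 transcripts in the 4 mock and 4 GC7 libraries, 1 point per library, with the mean and SD in black. Each panel has its own axis from 0, where the SD bars of H2-Aa and Igkc are cut. H2-Ab1, H2-DMb2, H2-Oa, Ighm and Igha lie lower with GC7, Cd74 and H2-Eb1 lie higher, and the other 3 overlap.

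Ighm, the constant gene of IgM (chr12:113418558-113422730, minus strand), had the highest level of the 10 genes. Mock libraries held 450, 561, 465 and 484 CPM and GC7 libraries 263, 263, 284 and 287 CPM. The levels were 490.3 ± 49.4 CPM in mock and 274 ± 13.2 CPM with GC7, a 1.79-fold difference and a log2 difference of -0.84 (SE 0.0770), without overlap. Its raw counts were 5124 to 13266 per library.

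Igha, the constant gene of IgA (chr12:113254830-113260236, minus strand), was lower with GC7 by 6.99-fold, the largest fold among the 5 genes that were lower. Its raw counts were 223, 361, 205 and 207 in mock and 42, 38, 29 and 31 with GC7. In CPM these are 11.6 ± 2.56 and 1.66 ± 0.308, with a log2 difference of -2.81 (SE 0.190). The groups were far apart, and the gene passed the filter through the mock libraries only. The ratio of Ighm to Igha counts was 36.7 to 49.0 in mock and 129 to 223 with GC7.

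Igkc, the constant gene of the kappa light chain (chr6:70726435-70726966, plus strand), had almost no counts. The mock libraries held 2, 1, 0 and 0 and the GC7 libraries 0, 0, 2 and 2, so no fold is given. Cd79a (chr7:24897381-24902197, plus strand) had 10, 15, 19 and 19 raw counts in mock and 12, 27, 14 and 21 with GC7. These groups overlapped, with a log2 difference of 0.22 (SE 0.334) in the fit without the filter. Cd79a shares 298 bases at 98.7% identity with Gm32220. A high Ighm level therefore stood beside a kappa gene at or under 2 counts in all 8 libraries.

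Of the 6 genes above the filter, 5 were lower and 1 was higher at an FDR under 0.01, where 23.5% of the 11189 genes tested were lower and 23% higher. With a 2-fold difference added, 4 were lower and 1 higher, against 5.31% and 3.17% of all genes tested. The contrast was known when the genes were chosen, so nothing is read from these counts. Over all 10, the groups did not overlap for 7. All mock libraries were above all GC7 libraries for 5, a pattern held by 14.3% of the 28350 genes with a count, and the reverse held for 2, against 14% of these genes. The median log2 difference over all genes tested was 0.02.

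Per kb of exon, the order of levels in mock was Ighm (260 ± 26.2 CPM per kb), H2-Ab1 (57.0 ± 8.67), H2-Oa (11.8 ± 0.791), H2-DMb2 (6.34 ± 0.901), Igha (4.35 ± 0.958), Cd74 (1.24 ± 0.203), Cd79a (0.510 ± 0.140), H2-Eb1 (0.149 ± 0.0374), Igkc and H2-Aa. The last 3 did not all differ beyond their spread, since the mean ± SD of Igkc overlapped both H2-Eb1 and H2-Aa. With GC7 the order on the same scale was Ighm (145 ± 6.99), H2-Ab1 (15.7 ± 1.38), Cd74 (7.26 ± 0.459), H2-Oa (4.79 ± 1.17), H2-DMb2 (2.65 ± 0.203), H2-Eb1 (1.36 ± 0.556), Igha (0.623 ± 0.115), Cd79a, Igkc and H2-Aa. There, Igha and Cd79a overlapped within their SD, as did Igkc and H2-Aa. Cd74 and H2-Eb1 moved up in the order, and Igha, H2-Oa, H2-DMb2 and Cd79a moved down. The share of class II CPM carried by H2-Ab1 was 82.0 to 84.5% in mock and 56.8 to 62.8% with GC7.

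Summed per library, the 6 class II genes (with Cd74) held 176 ± 24.4 CPM in mock and 66.7 ± 4.70 CPM with GC7, and the 3 immunoglobulin genes 502 ± 51.6 and 276 ± 13.0 CPM. The class II sum follows H2-Ab1 and the immunoglobulin sum follows Ighm, which carried 97.3 to 98.0% of it in mock and 99.2 to 99.5% with GC7. In these bulk cultures, fewer cells of a type and less RNA per cell cannot be told apart.

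The class II region from H2-Oa to the pseudogene H2-Ea-ps spans 252.3 kb and holds 14 protein-coding genes, of which 5 are among the 10 described here. Genes for other functions lie between them, namely the chromatin reader Brd2, the peptide transporters Tap1 and Tap2, and the immunoproteasome subunits Psmb8 and Psmb9. Their log2 differences were small, at -0.16 for Brd2, 0.11 for Tap1, -0.15 for Tap2, -0.33 for Psmb8 and -0.18 for Psmb9. All mock libraries were above all GC7 libraries for Brd2, Psmb8 and Tap2, a pattern held by 14.3% of the genes with a count. H2-DMa, the alpha chain of H2-DM, had a log2 difference of -0.15 that did not pass the test (adjusted p = 0.201, edgeR's quasi-likelihood test). H2-Eb2 had at most 5 counts in a library. Large differences in both directions therefore lay beside small ones within the same region.

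**Figure D2:**
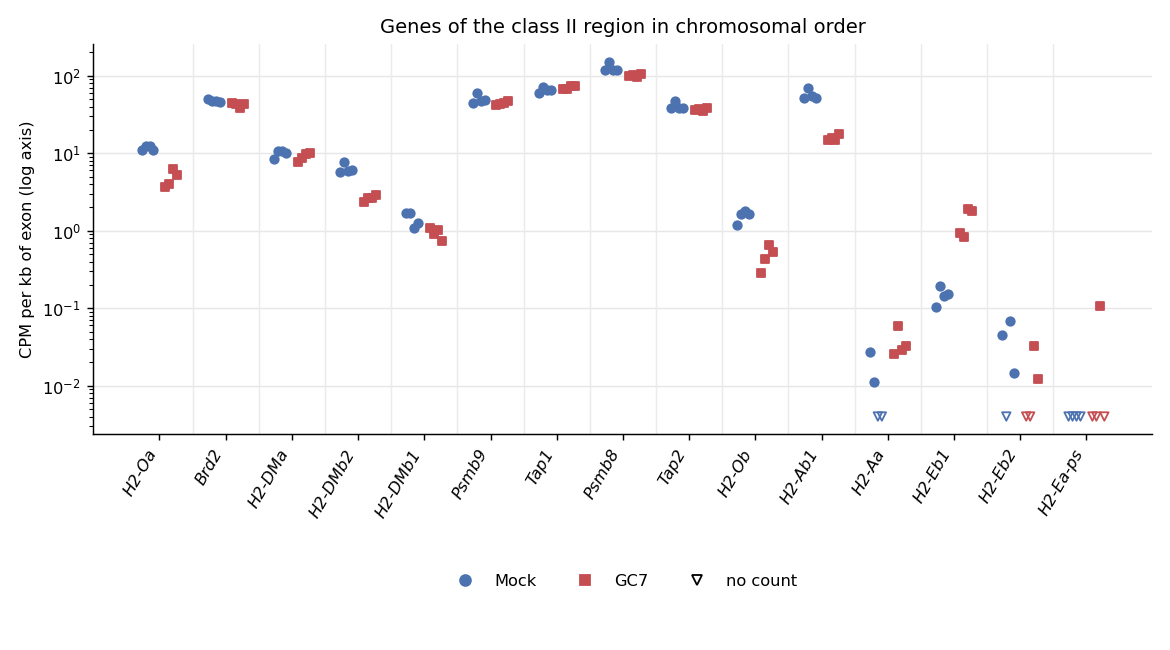
Levels of the genes of the class II region in CPM per kb of exon, on a log axis, in chromosomal order, with 1 point per library and open triangles for libraries without a count. H2-Oa, H2-DMb2, H2-Ob and H2-Ab1 lie lower with GC7 and H2-Eb1 lies higher, whereas Brd2, H2-DMa, Psmb9, Tap1, Psmb8 and Tap2 differ little between the groups. For Brd2, Psmb8 and Tap2 all mock points still lie above all GC7 points.

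The rest of the class II pathway was read from 21 genes, none of them among the 10. Of the 17 above the filter, 4 fell, 6 rose and 7 did not pass the test, with a median log2 change of 0.01 beside 0.02 for all genes. Over all genes tested, 23.5% were lower and 23% higher. The largest rise was of Cd83 (3.77, SE 0.251, adjusted p = 1.2e-07), a surface protein that opposes the degradation of class II molecules. Cd83 passed the filter through the GC7 libraries only. March8 (0.58, adjusted p = 4.5e-04), a ubiquitin ligase of the MARCH family, and the lysosomal protease gene Ctsd (0.41, adjusted p = 0.00113) came next. Beside H2-Ob, the largest falls were of Rfxap (-0.77, adjusted p = 2.6e-06), a subunit of the RFX complex, and Nfyc (-0.40, adjusted p = 0.00153), a subunit of NF-Y. The other two subunits of NF-Y rose, Nfya by 0.37 and Nfyb by 0.35 on the log2 scale (adjusted p = 0.00271 and 0.00227). These p-values are from edgeR's quasi-likelihood test with Benjamini-Hochberg adjustment.

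Ciita, the transactivator on which class II transcription in presenting cells depends, had 5, 2, 7 and 7 raw counts in mock and 7, 7, 9 and 4 with GC7. It did not pass the test without the filter (log2 difference 0.37, adjusted p = 0.657, edgeR's quasi-likelihood test). At 9 or fewer counts per library a difference of this size was not detectable. The groups overlapped for Ciita and did not for H2-Ab1, Cd74 and H2-Eb1. Of the 4 genes of this list below the filter, none passed the test in that fit, and 2 had an unadjusted p under 0.05. In that fit, 11.9% of the 28350 genes were lower and 11.8% higher.

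**Figure D3:**
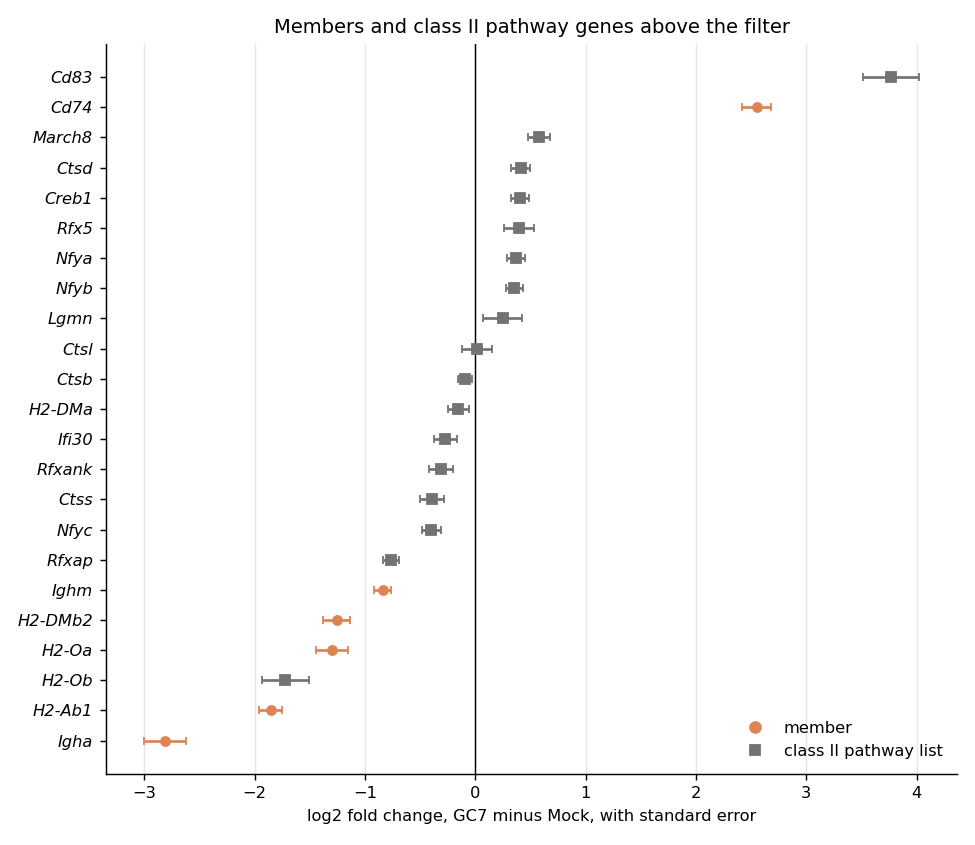
Log2 fold change, GC7 minus mock, with its SE (bars), for the 6 described genes (circles) and the 17 genes of the class II pathway list (squares) above the filter. Cd83 and Cd74 stand at the right at 3.77 and 2.55, and Igha, H2-Ab1 and H2-Ob at the left at -2.81, -1.85 and -1.72.

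At the heavy chain locus, the counts lay on the joining segments and 3 of the constant genes rather than on variable segments. Sequences of the diversity segment Ighd4-1 and of the 4 joining segments are shown because these are the segments that the reads were counted on (GENCODE M21, GRCm38, 5′ to 3′ on the minus strand). For Ighj2 the joining segment itself is shown, whereas its counts refer to an annotated gene of 100 bases that extends further upstream. Capitals mark the shared TGGGG, the start of the codons for the tryptophan and glycine that joining segments carry.
Ighd4-1, chr12:113430528-113430538: ctaactgggac
Ighj1, chr12:113429781-113429833: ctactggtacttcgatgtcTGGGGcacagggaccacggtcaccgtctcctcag
Ighj2, chr12:113429468-113429515: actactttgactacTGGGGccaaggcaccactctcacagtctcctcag
Ighj3, chr12:113429085-113429132: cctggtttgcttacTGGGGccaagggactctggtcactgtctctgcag
Ighj4, chr12:113428514-113428567: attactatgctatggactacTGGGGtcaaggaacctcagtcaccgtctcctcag

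The joining segments of all immunoglobulin loci together held 330, 354, 404 and 360 raw counts in mock and 107, 78, 107 and 97 with GC7, all of them on Ighj1 to Ighj4. In CPM these are 17.1 ± 1.63 and 4.67 ± 1.09. The groups were far apart, and each of the 4 segments was lower in every GC7 library than in any mock library. The segments were picked after their values had been seen, so no test is given. Their log2 differences were -1.92 (SE 0.151) for Ighj1, -1.85 for Ighj2, -2.02 for Ighj3 and -1.78 (SE 0.212) for Ighj4, and that of Ighm was -0.84. Ighj1 and Ighj4 passed the filter through the mock libraries only. The values of Ighj2 and Ighj3 are from the fit without the filter. Whether the joining segments differed more than Ighm was not tested. Ighd4-1, the diversity segment nearest to them, had 1.37 ± 0.250 CPM in mock and 0.532 ± 0.177 CPM with GC7.

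The 380 annotated variable segments of all loci held 21, 22, 23 and 10 counts in mock and 24, 19, 24 and 21 with GC7. These are 0.892 ± 0.270 and 1.06 ± 0.230 CPM, and the groups overlapped. Only 23 of the segments had a count. Most of those counts were on Igkv14-111, with 18 counts over the mock libraries and 51 with GC7, and on Ighv1-23, with 33 and 13. The variable segments together were thus far below Ighm, with 5124 to 13266 counts in a single library.

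Among the other heavy chain constant genes, Ighd (IgD) fell with a log2 change of -1.12 (SE 0.158, adjusted p = 6.9e-05, edgeR's quasi-likelihood test). Its counts were 144, 232, 177 and 150 in mock and 60, 77, 84 and 99 with GC7. The 4 IgG genes and Ighe had at most 2 counts in a library, and the lambda genes Iglc1, Iglc2 and Iglc3 had none. Ighm, Ighd and Igha were thus the constant genes with more than a few counts. Whether reads of this locus came from the coding strand cannot be told, as the strand setting of the counting is not given in the sources used here.

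**Figure D4:**
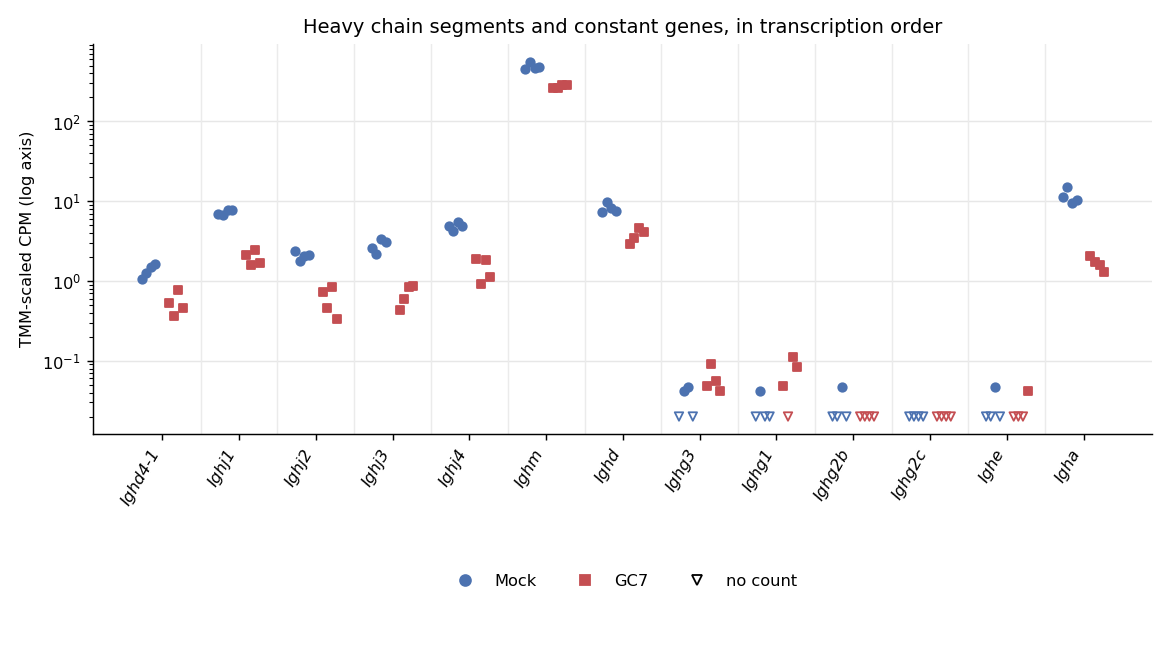
TMM-scaled CPM, on a log axis, of Ighd4-1, the joining segments and the heavy chain constant genes in the order in which they are transcribed, with 1 point per library and open triangles for libraries without a count. The joining segments, Ighm, Ighd and Igha lie lower with GC7, and the IgG genes and Ighe are at or near 0.

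Among defining markers of B cells, Ms4a1 (CD20) and Pax5 had no count in any of the 8 libraries, which allows up to 3 counts in a library. Cd79b, the partner of Cd79a, was present and fell (log2 change -0.76, adjusted p = 0.00101, edgeR's quasi-likelihood test). It had 121 to 223 raw counts in mock and 69 to 120 with GC7. Of the 34 immunoglobulin and B-lineage genes listed, 30 were below the filter and 15 had at most 3 counts in every library. The list's summed level was 39.2 to 47.3 CPM in mock and 20.5 to 24.1 CPM with GC7.

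All 4 genes of that list above the filter fell, with a median log2 change of -1.03, where 23.5% of all genes tested were lower. Dntt, the terminal transferase of lymphocyte precursors, fell most (-2.76, SE 0.186, adjusted p = 1.3e-07), from 110, 167, 152 and 149 raw counts to 24, 15, 23 and 22. It passed the filter through the mock libraries only, so its direction followed from the filter. Ighd lies beside the described gene Ighm on chromosome 12. Nothing is therefore read from the fall of all 4 genes. Cd72, a coreceptor of B cells, fell by 0.93 on the log2 scale (adjusted p = 6.8e-05). Of the 30 genes below the filter, 2 fell and 3 rose in the fit without it. These were Jchain (-3.97) and Fcmr (-1.05) on one side and Bank1 (3.77), Pou2af1 (2.18) and Rag1 (1.34) on the other, named because they were few. Summed counts in mock and with GC7 were 281 and 137 for Fcmr, 1 and 20 for Bank1, and 12 and 56 for Pou2af1. Counts of Rag1, the gene knocked out in the donors, were 10, 12, 8 and 5 in mock and 25, 10, 28 and 25 with GC7. The groups overlapped for Rag1. The J chain gene joins IgA and IgM into polymers. Its counts were 63, 76, 65 and 52 in mock and 1, 2, 2 and 11 with GC7, a difference in the same direction as that of Igha. The adjusted p-values are from edgeR's quasi-likelihood test.

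Markers of dendritic cells gave both directions. Itgax (CD11c) had 2, 5, 5 and 5 counts in mock and 2, 1, 0 and 1 with GC7, and Flt3 had at most 7 counts in a library. Clec9a and Siglech had none. Of the 10 listed genes above the filter, 4 fell, 2 rose and 4 did not pass the test, where 23.5% of all genes tested were lower and 23% higher. Zbtb46, a factor of conventional dendritic cells, rose by 3.14 and Cd80, a costimulatory ligand, by 1.38 on the log2 scale (adjusted p = 3.5e-07 and 4.4e-08). Fscn1, which encodes fascin, and the chemokine receptor genes Xcr1 and Ccr7 had log2 changes of -3.74, -3.00 and -0.50 (adjusted p = 3.6e-09, 1.8e-07 and 0.00377). Zbtb46 passed the filter through the GC7 libraries only, and Fscn1 and Xcr1 through the mock libraries only. Cd80 and Ccr7 are also known from T cells. The list's summed level was 630 to 665 CPM in mock and 680 to 752 CPM with GC7. Much of it lay on Irf4 (258 ± 24.2 CPM in mock, 242 ± 24.6 with GC7) and Irf8 (117 ± 9.14 and 128 ± 20.1). The study treats IRF4 as a transcription factor of T cells, so the sum is not a measure of dendritic cells. The rise of the sum was carried by Cd80, which went from 51.0 ± 4.58 to 132 ± 11.2 CPM. The median log2 change of the 10 genes was 0.02. Of the 11 genes below the filter, 2 rose in the fit without it, namely Ccl22, with 0, 0, 1 and 2 counts in mock and 7, 4, 5 and 13 with GC7, and Sirpa, with no count in mock and 4, 0, 3 and 7 with GC7. The p-values are from edgeR's quasi-likelihood test.

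Most monocyte and macrophage markers were nearly empty. Adgre1 (F4/80) had at most 1 and Csf1r at most 2 counts in a library, C1qa, C1qb and C1qc had none, and 13 of the 20 genes had at most 3 counts in every library. Cd68 and Cebpb, above the filter, did not pass edgeR's quasi-likelihood test (adjusted p = 0.143 and 0.782). With DESeq2 or limma-voom they did not pass either, and 0 of these 2 genes had an unadjusted p under 0.05. Of the 18 genes below the filter, 4 had an unadjusted p under 0.05 in the fit without it, and Fcer1g (-2.41) and Itgam (-2.69) fell. Fcer1g had 52 to 134 raw counts in mock and 11 to 22 with GC7, and Itgam had at most 8 in a library. The summed level was 29.5 to 41.5 CPM in mock and 24.6 to 30.1 CPM with GC7, ranges that overlap. Of 14 genes of other cells, 7 had no count, Pecam1 fell (-0.80, adjusted p = 4.3e-07, edgeR's quasi-likelihood test), and the sums were 51.5 to 56.3 and 31.1 to 32.5 CPM. Below the filter, Pdpn rose.

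T cell genes were abundant throughout, with 13255 to 24018 raw counts of Cd8a and 4564 to 7819 of Cd3e. Of 15 T cell genes, 8 fell, 2 rose and 5 did not pass the test, none by more than 2-fold. Over all genes tested, 23.5% were lower and 23% higher. The median log2 change of the list was -0.27, beside 0.02 for all genes. Cd8a and Cd5 rose by 0.48 and 0.35 on the log2 scale. Lck, Cd2 and Thy1 had log2 changes of -0.64, -0.61 and -0.53 and Cd3e of -0.23. The summed level was 6456 to 7599 CPM in mock and 5699 to 5978 CPM with GC7. The part of other cell types in the differences of H2-Ab1, Ighm, Igha and the other genes described was not tested.

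**Figure D5:**
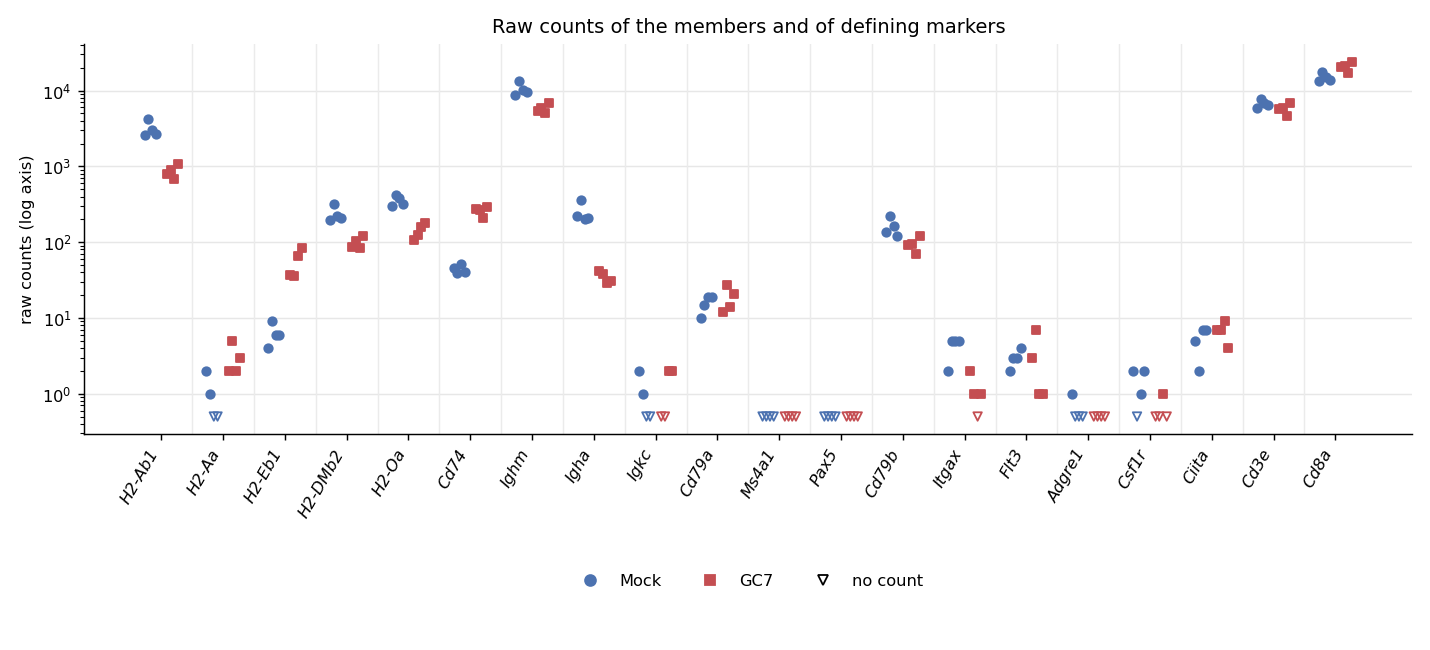
Raw counts, on a log axis, of the 10 described genes and of defining markers of B cells, dendritic cells, macrophages and T cells, with 1 point per library and open triangles for libraries without a count. Ms4a1, Pax5, Itgax, Flt3, Adgre1, Csf1r and Ciita stay under 10 counts, far below H2-Ab1 and Ighm, whereas Cd79b has 69 to 223.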

How the data were processed

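RNA of 4 mock and 4 GC7 libraries was used, grouped by the sample titles. The authors trimmed reads with Cutadapt, aligned them with STAR (GRCm38, Ensembl 96), counted them with featureCounts and deposited raw counts per gene and library, with no normalisation. The strand setting and the treatment of multi-mapping reads are not given in the sources used here. The members and gene lists were chosen with earlier results of these data known.

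Genes above 3 CPM (52.6 counts in the smallest library) in 4 or more libraries were fitted with edgeR 4.0.16 (R 4.3.3) by TMM scaling and the quasi-likelihood F test, with the group as the only term and Benjamini-Hochberg adjustment over 11189 genes. Passing the test means an FDR under 0.01. A fit over the 28350 genes with a count served genes below the filter, where the spread rests on few counts. Log2 differences and SEs come from these fits, and SDs from TMM-scaled CPM. Named are all 10 members, preset defining markers (1 is not reported here) and, per list, up to 3 largest rises and falls past the test. Genes beyond this rule were named after their values were seen, among them the joining segments, the class II region and listed genes below the filter. Alternatives were RLE factors, library totals, other filters, DESeq2 1.42.0, limma-voom (limma 3.58.1), a replicate block and each library left out. Methods were tested on simulated data. The simulation covered the fits, with genes above the filter only, and not genes below it. Near copies were found with BLAST 2.17.0 (at least 200 bases, 90% identity), and figures drawn with matplotlib 3.10.9. Intervals and floors (3 counts) cover counting error only.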

Additional observations from a re-analysis of the deposited data

Results flagged for a closer look

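Single libraries that stood apart from the other 3 of their group were looked for in 66 groups of 4 libraries over 40 genes, with the gap to the nearest library divided by the group's range. A ratio above Dixon's 95% critical value was found in 4 groups, and chance gives about 1 in 20. In mock library 2, H2-Ab1 was the highest with a ratio of 0.845 and H2-DMb2 with 0.848. Without this library their log2 differences were -1.74 and -1.15. The same library was highest for Thy1, a T cell surface gene, with a ratio of 0.894. GC7 library 2 was lowest for Cd2, with a ratio of 0.876.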

How the results depend on the processing

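For the 8 described genes other than H2-Aa and Igkc, no alternative with a value for the gene reversed the direction of its log2 difference. Library totals and limma-voom gave no value for H2-Eb1 and Cd79a. The log2 difference of Cd79a was smaller than its SE and was 0.0069 without GC7 library 2. Over the alternatives other than leaving a library out, the log2 difference lay between -1.86 and -1.76 for H2-Ab1, -0.85 and -0.74 for Ighm, -2.82 and -2.71 for Igha and 2.54 and 2.64 for Cd74. Library totals in place of TMM moved the median of all genes up by 0.0943. Genes lower by more than 2-fold numbered 594, and 1189 without a filter or 1013 with filterByExpr. Genes higher by more than 2-fold numbered 355, and 773, 601 and, with more than 3 CPM in all 8 libraries, 222. Immunoglobulin and B-lineage genes past the test rose from 4 to 9 with no filter and 9 with filterByExpr, monocyte and macrophage genes from 0 to 2 and 1, and other non-T cell genes from 1 to 2 with no filter. These settings test more genes. Dendritic cell genes dropped from 6 to 3 with the filter in all 8 libraries, which tests fewer. Low-count listed genes past the test numbered 10, 5 with DESeq2 and 6 with the replicate block, and the cause was not tested.

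Deviations of same-numbered libraries from their group means had correlations of 0.27, -0.12, 0.20 and -0.18, which did not show a pairing, and 2 of 4 correlated best with their own number. With the replicate block, 4867 genes passed the test in place of 5214, and the log2 difference of H2-Ab1 was -1.85. Leaving out each library in turn gave 4410 to 5704 genes. H2-Aa and Igkc, at 5 counts or fewer per library, allow no statement on a difference beyond their counts.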
